A study of Homo sapiens with 24 samples.

Results

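The comparison was between breast cancer cell lines: the difference between Aldefluor+ and Aldefluor- cells of SUM159 treated with ID8, minus the same difference in T47D treated with ID8. It was taken from the 12 ID8 arrays of the 24 in the series, chosen by their labels, and it compares differences only. Its standard errors and p-values came from a fit to all 24 arrays. The 4 ID8 groups, each with 3 arrays, were SUM159 Aldefluor+ cells (experiments 2, 3 and 4), SUM159 Aldefluor- cells of the same experiments, T47D Aldefluor+ cells (experiments 5, 6 and 7) and T47D Aldefluor- cells of those experiments. All of them had received 5 µM ID8 for 3 days, and 4 matching DMSO groups of 3 arrays came from the same experiments. Aldefluor+ cells were sorted against a gate set on cells that also held DEAB, which blocks the reaction, and each array measured RNA of a sorted bulk fraction on Affymetrix Human Gene ST arrays.

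The Aldefluor reagent is a fluorescent substrate that aldehyde dehydrogenases, chiefly cytosolic ALDH1 enzymes such as ALDH1A1 and ALDH1A3, convert to a charged product that stays in the cell. In breast tumours the bright fraction has been used as a marker of cells with stem cell properties, and the same enzymes make retinoic acid from retinaldehyde. SUM159 cells are triple-negative and mesenchymal in character, T47D is a luminal line that carries oestrogen and progesterone receptors, and ID8 is a small molecule known as an inhibitor of DYRK kinases.

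The values were log2 signals that the authors had normalized and adjusted for batch, and level differences between the lines were small in them; the part of the adjustment in this was not tested. The largest gap between the lines of any gene on the ID8 arrays was 1.54 (log2). Of the genes typical of SUM159, 10 of 11 were still higher in SUM159, with a median of 0.43, and of those typical of T47D, 15 of 15 were higher in T47D, with a median SUM159 minus T47D of -0.69. Levels are therefore set side by side only within a line. ID8 arrays had medians of 2.06 to 2.11 and interquartile ranges of 2.97 to 3.08, and their number, 3 per group, limits the precision; the median standard error of the line difference was 0.262. Leukocyte markers lay below 2 for 10 of 11 genes, endothelial markers for 7 of 9, and fibroblast and pericyte markers for 4 of 8. The mean over the leukocyte list per array was 1.37 to 1.60 in SUM159 Aldefluor+, 1.35 to 1.43 in SUM159 Aldefluor-, 1.37 to 1.45 in T47D Aldefluor+ and 1.34 to 1.45 in T47D Aldefluor- cells. The other lists had array means of 1.46 to 1.52, 1.32 to 1.47, 1.36 to 1.39 and 1.37 to 1.42 for endothelial markers in the same group order, and of 1.66 to 1.84, 1.77 to 1.95, 1.65 to 1.69 and 1.76 to 1.88 for fibroblast and pericyte markers; the part of such small shifts in the results was not tested.

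With ID8, the Aldefluor difference itself differed between the lines in 53 of 22395 genes. Of these, 5 passed within both lines, in opposite directions. ALDH1A1 was higher in Aldefluor+ cells of SUM159 by 8.13-fold, against 0.981-fold in T47D. The ligand gene TGFB2, the ephrin gene EFNB2 and the adaptor gene CABLES1 fell in Aldefluor+ cells of SUM159 and rose in those of T47D. So did the Wnt antagonist gene DKK1 and the ubiquitin ligase gene FBXO32. Each of these changes passed the test in its own line when all 24 arrays were fitted. The limma adjusted p in SUM159 was 0.0125 to 0.0437. On the 12 ID8 arrays alone only 3 genes passed within SUM159. Which of these SUM159 changes were among them, if any, is not given here. The amino acid transporter gene SLC6A14 and the receptor genes CALCR and NPR3 rose in Aldefluor+ cells of T47D, and desmoplakin (DSP) rose in those of SUM159.

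The line difference of 53 of 22395 genes had a limma adjusted p below 0.05, which is 0.237% of all genes. In 17 of them (0.0759%) the Aldefluor difference was higher in SUM159 than in T47D, and in 36 (0.161%) it was lower. An unadjusted p below 0.05 was found for 2043 genes (9.12%), with 4.29% of all genes higher and 4.83% lower. The size of the called differences was 0.822 to 3.05 (log2), with a median of 1.53, where the median line difference over all genes was 0.00 and its SD over genes 0.364. In all 53, the 3 SUM159 experiments did not overlap the 3 T47D experiments, as in 14.6% of all genes (7.00% higher, 7.65% lower).

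The Aldefluor difference had opposite signs in SUM159 and T47D in 50 of the 53 genes (94.3%), against 51.4% of all genes; selection on SUM159 minus T47D itself favours opposite signs, so this is a description. The exceptions were DOCK10, LMO4 and NPR3, whose means had 1 sign in both lines. In 36 of the 53 the sign was opposite in every one of the 6 experiments, a pattern not counted over all genes. An unadjusted p below 0.05 in each line, with opposite signs, was found for 32 genes, 10 higher and 22 lower in SUM159. Over all genes this threshold was passed by 7.52% in SUM159 and 8.93% in T47D. The share of all genes that passed in both with opposite signs was not counted. The 17 genes of the higher group had a median Aldefluor difference of 0.59 in SUM159 and -0.87 in T47D, and the 36 of the lower group -0.49 in SUM159 and 0.70 in T47D. These counts and medians describe genes selected on their line difference and are no test. The T47D difference was the larger in size in 38 genes and the SUM159 difference in 15.

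Within each line, the adjusted threshold was passed by 45 genes in SUM159 (0.201%) and 82 in T47D (0.366%). Of these, 14 of the SUM159 genes (31.1%) and 30 of the T47D genes (36.6%) also differed between the lines. Among the 53, 5 passed in both lines, 9 in SUM159 and not in T47D, 25 in T47D and not in SUM159, and 14 in neither line. A gene that passed in a single line is said to differ between the lines here only because the line difference itself was tested.

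**Figure D1:**
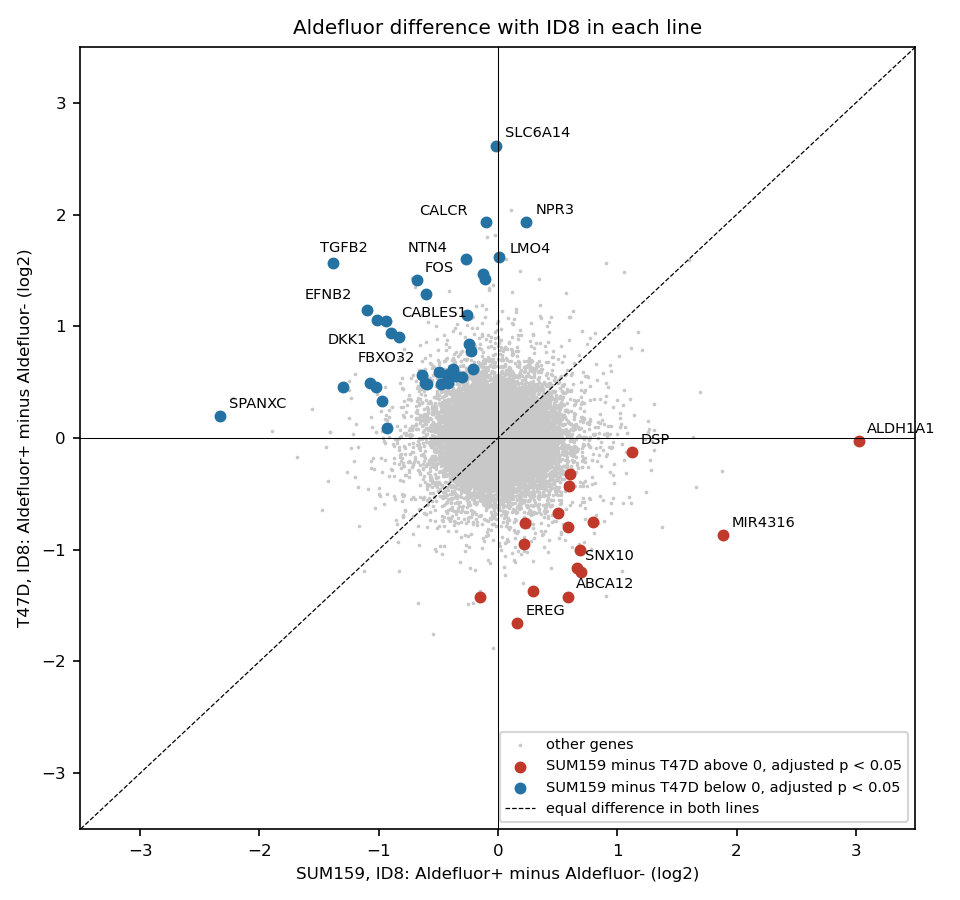
Aldefluor+ minus Aldefluor- with ID8 (log2) of every gene in SUM159 (horizontal) and T47D (vertical), where the dashed line marks equal differences; red and blue points are the 17 and 36 genes whose line difference passed the threshold. Most blue points lie upper left and most red points lower right, with ALDH1A1 near 3.02 on the SUM159 axis and SLC6A14 near 2.62 on the T47D axis.

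The SUM159 and T47D differences were nearly uncorrelated across the 22395 genes (r = -0.03), a description over genes that share the arrays and are not independent. Of 6 genes that passed in both lines, SEMA3C, a secreted semaphorin, was the one with the same sign in each. Its Aldefluor difference was -0.71 ± 0.095 (SE) in SUM159 and -0.52 ± 0.095 in T47D, and the line difference of -0.18 had a 95% interval of -0.47 to 0.10. It was named after its values were seen.

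The RNA recovered per sorted cell also differed between fractions. It averaged 14.3 ± 1.79 pg in SUM159 Aldefluor+ and 12.7 ± 2.17 pg in SUM159 Aldefluor- cells, and 17.3 ± 4.43 pg in T47D Aldefluor+ and 11.8 ± 3.15 pg in T47D Aldefluor- cells (SD, n = 3 each), computed from labelled RNA yields and sorted cell counts. The log2 ratio of the fractions was 0.266, 0.0912 and 0.182 in the SUM159 experiments, against 0.591, 0.467 and 0.607 in those of T47D. The lines did not overlap, and their difference of -0.38 had a two-sided exact permutation p of 0.1, the smallest that 3 experiments against 3 can give. Arrays were scaled to a common distribution, so an amount per cell is not in the log2 values, and the part of this difference in the expression results was not tested. In sorted bulk RNA, fewer cells of a kind and less RNA per cell cannot be told apart.

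ALDH1A1, the cytosolic retinaldehyde dehydrogenase most tied to the Aldefluor reaction (chromosome 9, 72900671 to 72953053, GRCh38.p14), had the most positive line difference. Its log2 signal was 4.96, 5.30 and 5.41 in SUM159 Aldefluor+ cells and 2.21, 2.36 and 2.02 in SUM159 Aldefluor- cells, and 3.21, 3.01 and 3.30 in T47D Aldefluor+ and 3.14, 3.19 and 3.27 in T47D Aldefluor- cells. The SUM159 fractions were far apart and the T47D fractions overlapped. The Aldefluor difference was 3.02 ± 0.171 (SE) in SUM159 and -0.03 ± 0.171 in T47D, which gave a line difference of 3.05 ± 0.242 (adjusted p = 2.34e-05) with a 95% interval of 2.54 to 3.57. As a ratio of folds, this was 8.29.

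ALDH1A3, the other retinaldehyde dehydrogenase often named for Aldefluor activity in breast cancer, went the other way without passing. Its log2 signal was 2.20, 2.08 and 1.87 in SUM159 Aldefluor+ and 1.70, 1.73 and 2.20 in SUM159 Aldefluor- cells, against 2.65, 2.61 and 2.91 in T47D Aldefluor+ and 1.93, 1.79 and 2.11 in T47D Aldefluor- cells. Only the T47D fractions did not overlap. The Aldefluor difference was 0.17 in SUM159 and 0.78 in T47D (adjusted p = 0.159), and the line difference was -0.61 ± 0.288 (adjusted p = 0.55; 95% interval -1.22 to 0.00). Of 17 ALDH family genes measured, ALDH1A1 was the single call, 2 were higher and 1 lower at an unadjusted p below 0.05, and their median line difference was 0.02. After ALDH1A1, ALDH3B1 (0.67), ALDH1A3 and ALDH2 (0.49) followed in order of size, and none of them passed. Among 20 genes of retinoic acid metabolism and response none was called, with 0 higher and 2 lower at an unadjusted p below 0.05 by limma; these lower genes, the carriers RBP4 (-0.45) and CRABP2 (-0.34), had adjusted p of 0.412 and 0.5.

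The 5 genes that passed in both lines in opposite directions are set out next. The sequence around the transcription start is printed for 4 of them, and FBXO32 was left out of the printed windows. Each window runs from 250 bases before to 50 after the start in RefSeq on GRCh38.p14, 5′ to 3′ on the gene's strand. They lie at chr10:52314031-52314330 (plus strand, DKK1), chr18:23134314-23134613 (plus strand, CABLES1), chr13:106535613-106535912 (minus strand, EFNB2) and chr1:218345086-218345385 (plus strand, TGFB2). Capitals mark the letters TATAAA, known from the core promoter element that binds TBP, and GGAATG, the core letters of TEAD factor motifs, or their reverse complements.
DKK1: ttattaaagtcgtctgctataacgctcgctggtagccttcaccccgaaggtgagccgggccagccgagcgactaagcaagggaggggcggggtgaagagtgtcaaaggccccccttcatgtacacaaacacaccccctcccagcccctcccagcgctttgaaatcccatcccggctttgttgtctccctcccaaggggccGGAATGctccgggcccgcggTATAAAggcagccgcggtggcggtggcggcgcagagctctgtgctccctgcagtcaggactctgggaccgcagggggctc
CABLES1: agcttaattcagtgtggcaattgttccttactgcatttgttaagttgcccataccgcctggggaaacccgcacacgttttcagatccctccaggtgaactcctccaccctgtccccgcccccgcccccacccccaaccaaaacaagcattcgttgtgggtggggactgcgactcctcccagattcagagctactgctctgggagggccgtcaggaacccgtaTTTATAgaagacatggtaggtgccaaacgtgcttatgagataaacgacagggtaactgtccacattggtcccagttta
EFNB2: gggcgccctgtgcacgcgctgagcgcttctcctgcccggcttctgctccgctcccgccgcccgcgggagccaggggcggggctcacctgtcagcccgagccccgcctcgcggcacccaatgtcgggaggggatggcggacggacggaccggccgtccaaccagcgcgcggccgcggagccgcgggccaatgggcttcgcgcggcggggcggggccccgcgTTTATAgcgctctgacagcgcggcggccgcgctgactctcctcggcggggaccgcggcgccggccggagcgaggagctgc
TGFB2: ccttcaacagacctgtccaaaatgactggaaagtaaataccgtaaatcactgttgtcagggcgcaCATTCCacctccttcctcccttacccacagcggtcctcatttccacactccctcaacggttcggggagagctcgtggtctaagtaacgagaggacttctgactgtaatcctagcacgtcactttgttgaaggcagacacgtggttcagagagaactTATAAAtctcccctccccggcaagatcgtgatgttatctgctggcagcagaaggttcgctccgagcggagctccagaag
TATAAA on the gene's strand began 30 bases before the start in DKK1 and 29 in TGFB2. In CABLES1 and EFNB2 the match was the reverse complement TTTATA, which began 28 bases before the start in CABLES1 and 30 in EFNB2. The TEAD letters began 50 bases before the start in DKK1 and, as the reverse complement CATTCC, 185 in TGFB2. Over 27305 promoter windows, searched on both strands, 11.95% held TATAAA, 14.05% GGAATG, 7.76% the AP-1 letters TGANTCA and 1.98% the CRE letters TGACGTCA. The 41 called genes with a window held TATAAA in 7 (17.1%), GGAATG in 6 (14.6%), TGANTCA in 7 (17.1%) and TGACGTCA in 2 (4.88%). FBXO32 was not among the called genes with any of these letters, so the printed windows do not stand for it. The motifs were chosen after the genes were known, so these shares are descriptions, and a match is not a binding site.

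TGFB2, a secreted ligand of the TGF-beta family (chromosome 1, 218345336 to 218444619), had the most negative line difference. Its log2 signal was 5.21, 5.29 and 5.39 in SUM159 Aldefluor+ and 6.58, 6.66 and 6.79 in SUM159 Aldefluor- cells, against 6.36, 6.05 and 6.26 in T47D Aldefluor+ and 4.17, 5.07 and 4.72 in T47D Aldefluor- cells. The fractions did not overlap in either line and lay in opposite order. TGFB2 fell 2.61-fold in Aldefluor+ cells of SUM159 (log2 -1.38 ± 0.244, adjusted p = 0.0437) and rose 2.97-fold in those of T47D (1.57 ± 0.244, adjusted p = 0.00534). The line difference was -2.95 ± 0.345 (adjusted p = 0.000654), a ratio of folds of 7.75.

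EFNB2 (chromosome 13, 106489745 to 106535662) encodes ephrin-B2, a membrane-bound ligand of Eph receptors that signals between neighbouring cells. It had a log2 signal of 2.24, 2.40 and 2.69 in SUM159 Aldefluor+ and 3.44, 3.40 and 3.79 in SUM159 Aldefluor- cells, against 3.99, 3.98 and 3.59 in T47D Aldefluor+ and 2.70, 2.94 and 2.47 in T47D Aldefluor- cells. Again no array of the lower fraction reached the higher one in either line. EFNB2 fell 2.14-fold in SUM159 (adjusted p = 0.0387) and rose 2.22-fold in T47D (adjusted p = 0.00996), with a line difference of -2.25 ± 0.270 (adjusted p = 0.00075).

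CABLES1 (chromosome 18, 23134564 to 23260470) encodes an adaptor that binds cyclin-dependent kinases. The log2 signal was 4.60, 4.89 and 4.88 in SUM159 Aldefluor+ and 5.73, 5.72 and 5.74 in SUM159 Aldefluor- cells, against 6.41, 6.63 and 6.29 in T47D Aldefluor+ and 5.38, 5.29 and 5.52 in T47D Aldefluor- cells. The SUM159 Aldefluor- arrays were nearly equal and all above the Aldefluor+ ones, and the T47D fractions were separated the other way. It fell 1.92-fold in SUM159 (adjusted p = 0.0125) and rose 2.07-fold in T47D (adjusted p = 0.00134), and its line difference of -1.99 ± 0.191 had an adjusted p of 0.000121.

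DKK1 (chromosome 10, 52314281 to 52317657) is a secreted antagonist of Wnt signalling that binds the LRP co-receptors. On the arrays its log2 signal read 2.12, 2.40 and 1.99 in SUM159 Aldefluor+ and 2.70, 3.18 and 3.34 in SUM159 Aldefluor- cells, against 2.93, 3.15 and 2.95 in T47D Aldefluor+ and 2.03, 2.10 and 2.09 in T47D Aldefluor- cells. The lower fraction of each line lay near 2, a low level on these arrays, and the fractions did not overlap. DKK1 fell 1.87-fold in SUM159 (adjusted p = 0.0437) and rose 1.92-fold in T47D (adjusted p = 0.0141), with a line difference of -1.84 ± 0.231 (adjusted p = 0.00113).

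FBXO32 encodes atrogin-1, the substrate-binding subunit of a ubiquitin ligase best known from muscle wasting. The arrays gave log2 signals of 4.01, 3.80 and 4.10 in SUM159 Aldefluor+ and 4.85, 4.76 and 4.80 in SUM159 Aldefluor- cells, against 5.42, 5.44 and 5.57 in T47D Aldefluor+ and 4.53, 4.48 and 4.72 in T47D Aldefluor- cells. Both lines had clear gaps between fractions, in opposite order. It fell 1.78-fold in SUM159 (adjusted p = 0.0377) and rose 1.87-fold in T47D (adjusted p = 0.00585), and the line difference was -1.73 ± 0.201 (adjusted p = 0.000654).

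**Figure D2:**
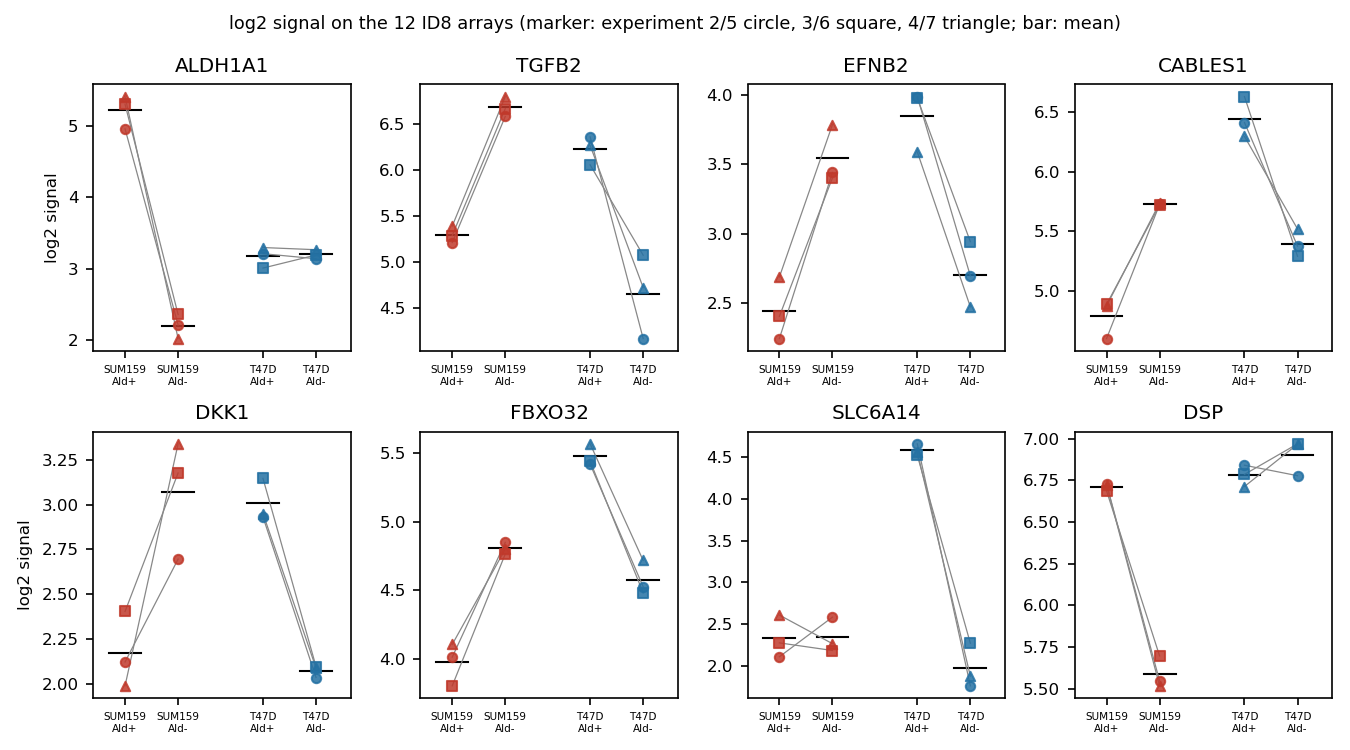
log2 signal of 8 genes on the 12 ID8 arrays, with SUM159 Aldefluor+ (Ald+) and Aldefluor- (Ald-) cells at the left of each panel and those of T47D at the right; grey lines join the fractions of 1 experiment, markers tell the experiments apart and bars are group means. TGFB2, EFNB2, CABLES1, DKK1 and FBXO32 slope up towards Aldefluor- in SUM159 and down in T47D, ALDH1A1 and DSP differ in SUM159, and SLC6A14 differs in T47D.

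Genes that passed in T47D and not in SUM159 were the largest class, with 14 of them lower and 11 higher in the SUM159 minus T47D difference. SLC6A14, a sodium- and chloride-coupled transporter of neutral and basic amino acids (chromosome X, 116436606 to 116461458), led the class. Its log2 signal was 2.11, 2.27 and 2.61 in SUM159 Aldefluor+ and 2.58, 2.18 and 2.27 in SUM159 Aldefluor- cells, against 4.66, 4.52 and 4.56 in T47D Aldefluor+ and 1.76, 2.27 and 1.87 in T47D Aldefluor- cells. The T47D Aldefluor+ arrays stood above all the others of that line, and the SUM159 fractions overlapped. The Aldefluor difference was -0.01 in SUM159 and 2.62 in T47D (6.13-fold, adjusted p = 7.2e-06), and the line difference was -2.63 ± 0.271 (adjusted p = 0.000232).

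Receptor genes were in the same class. CALCR, the calcitonin receptor, had a log2 signal of 1.58, 1.66 and 1.65 in SUM159 Aldefluor+ and 1.51, 1.67 and 2.00 in SUM159 Aldefluor- cells, against 2.97, 3.00 and 2.61 in T47D Aldefluor+ and 0.82, 1.03 and 0.92 in T47D Aldefluor- cells. NPR3, the clearance receptor of natriuretic peptides, had a log2 signal of 5.49, 5.60 and 5.85 in SUM159 Aldefluor+ and 5.03, 5.44 and 5.77 in SUM159 Aldefluor- cells, against 6.41, 6.50 and 6.33 in T47D Aldefluor+ and 4.39, 4.57 and 4.49 in T47D Aldefluor- cells. For both receptors the T47D fractions were far apart and the SUM159 fractions overlapped, and CALCR was below 2 in 3 of the 4 groups. The line difference of CALCR was -2.04 ± 0.274 (adjusted p = 0.00243) and that of NPR3 -1.70 ± 0.322 (adjusted p = 0.0437), a call that was lost when any 1 of the 6 experiments was left out. They were the 2 calls among 16 measured ligands and receptors of the GDNF, calcitonin and natriuretic peptide systems, whose median line difference was -0.02. GFRA1, a GDNF co-receptor, fell by 1.75 in Aldefluor+ cells of T47D (adjusted p = 0.00288) and had -0.54 in SUM159, and its line difference of 1.21 did not pass (adjusted p = 0.229).

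NTN4, a laminin-related netrin of basement membranes, had a log2 signal of 4.62, 4.31 and 4.28 in SUM159 Aldefluor+ and 4.68, 4.86 and 4.48 in SUM159 Aldefluor- cells, against 6.38, 6.00 and 6.12 in T47D Aldefluor+ and 4.34, 4.68 and 4.66 in T47D Aldefluor- cells. LMO4, a LIM-domain transcription cofactor of mammary epithelium, had a log2 signal of 4.65, 4.03 and 4.41 in SUM159 Aldefluor+ and 4.04, 4.56 and 4.47 in SUM159 Aldefluor- cells, against 5.76, 5.50 and 5.49 in T47D Aldefluor+ and 3.80, 4.14 and 3.97 in T47D Aldefluor- cells. In both genes the T47D Aldefluor+ arrays were apart and the SUM159 fractions overlapped. The line difference was -1.87 ± 0.225 for NTN4 (adjusted p = 0.00075) and -1.61 ± 0.261 for LMO4 (adjusted p = 0.0134). When each experiment was left out in turn, NTN4 passed in all 6 fits and LMO4 in 1.

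ANXA3, a calcium-dependent phospholipid-binding annexin, had log2 signals of 4.38, 4.03 and 4.14 in SUM159 Aldefluor+ and 4.54, 4.93 and 4.88 in SUM159 Aldefluor- cells, against 5.60, 5.42 and 5.46 in T47D Aldefluor+ and 3.94, 4.29 and 4.40 in T47D Aldefluor- cells. FOS, a subunit of the AP-1 transcription factor, had log2 signals of 2.05, 1.67 and 2.31 in SUM159 Aldefluor+ and 2.46, 2.68 and 2.93 in SUM159 Aldefluor- cells, against 3.23, 2.72 and 3.07 in T47D Aldefluor+ and 1.70, 1.50 and 1.58 in T47D Aldefluor- cells. Neither gene's fractions overlapped in either line, and the order was reversed between them. ANXA3 had -0.60 in SUM159 and 1.29 in T47D, with a line difference of -1.88 ± 0.220 (adjusted p = 0.000654), and FOS had -0.68 in SUM159 and 1.41 in T47D, with a line difference of -2.10 ± 0.311 (adjusted p = 0.00661). Both passed in T47D, with adjusted p of 0.00067 for ANXA3 and 0.00534 for FOS, and missed the threshold in SUM159.

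In the higher direction, this class held the growth factor gene EREG (epiregulin, a ligand of the EGF receptor), the lipid transporter gene ABCA12 and the endosomal sorting nexin gene SNX10. EREG had log2 signals of 7.59, 7.16 and 7.75 in SUM159 Aldefluor+ and 7.10, 7.50 and 7.42 in SUM159 Aldefluor- cells, against 5.86, 5.90 and 5.46 in T47D Aldefluor+ and 7.21, 7.47 and 7.52 in T47D Aldefluor- cells. The T47D Aldefluor+ arrays were the low ones, 3.15-fold below Aldefluor- (adjusted p = 0.000463), and the SUM159 fractions overlapped. Its line difference was 1.82 ± 0.258 (adjusted p = 0.00406).

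ABCA12 had log2 signals of 3.57, 3.91 and 3.73 in SUM159 Aldefluor+ and 3.10, 3.17 and 3.18 in SUM159 Aldefluor- cells, against 2.82, 2.91 and 2.85 in T47D Aldefluor+ and 4.20, 4.35 and 4.29 in T47D Aldefluor- cells. SNX10 had log2 signals of 2.68, 2.71 and 2.90 in SUM159 Aldefluor+ and 2.35, 1.96 and 1.99 in SUM159 Aldefluor- cells, against 1.88, 1.87 and 1.98 in T47D Aldefluor+ and 3.24, 3.06 and 2.92 in T47D Aldefluor- cells. The fractions of both genes were separated in both lines, Aldefluor+ above in SUM159 and below in T47D. The line difference was 2.00 ± 0.181 for ABCA12 (adjusted p = 7.36e-05) and 1.82 ± 0.191 for SNX10 (adjusted p = 0.000232), with adjusted p in SUM159 of 0.091 for ABCA12 and 0.0612 for SNX10.

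The cystine and glutamate exchanger gene SLC7A11 had log2 signals of 6.67, 6.72 and 6.95 in SUM159 Aldefluor+ and 6.43, 6.67 and 6.58 in SUM159 Aldefluor- cells, against 5.96, 5.65 and 5.79 in T47D Aldefluor+ and 6.65, 6.67 and 6.92 in T47D Aldefluor- cells. It fell by 0.94 on the log2 scale in Aldefluor+ cells of T47D (adjusted p = 0.0122), and its line difference of 1.16 ± 0.228 was close to the threshold (adjusted p = 0.0479) and did not pass when any 1 experiment was left out. With SLC6A14 it made 2 calls in opposite directions among 15 amino acid transporters, whose median line difference was -0.01. Of 26 genes of the ATF4 and amino acid response, SLC7A11 was the single call and 19 lay below 0, with a median of -0.18.

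Other genes of the T47D class follow in brief. The follistatin-like gene FSTL1 had 0.84 in T47D (adjusted p = 0.00386) and -0.24 in SUM159, with a line difference of -1.08 ± 0.172 (adjusted p = 0.0122), and the testis-enriched respiratory chain subunit gene COX7B2 had 1.42 in T47D (adjusted p = 0.00067) and -0.11 in SUM159, with -1.53 ± 0.244 (adjusted p = 0.0122). COX7B2 was the single call among 20 respiratory chain subunits, whose median was -0.01. The homeobox gene DLX5 had a line difference of 1.66 (adjusted p = 0.0337), the protease inhibitor gene SPINK13 1.90 (adjusted p = 0.0375), the guanine nucleotide exchange factor gene DOCK10 1.27 (adjusted p = 0.0437) and PAMR1 -1.59 (adjusted p = 0.0479). DOCK10 had an Aldefluor difference below 0 in both lines, -0.15 in SUM159 and -1.42 in T47D, and PAMR1 had -0.13 in SUM159 and 1.46 in T47D.

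Genes that passed in SUM159 and not in T47D numbered 9. After ALDH1A1, the higher group held DSP, the desmosomal linker of keratin filaments (chromosome 6, 7541671 to 7586714), and ITGA2, the alpha subunit of a collagen-binding integrin. DSP had log2 signals of 6.73, 6.69 and 6.72 in SUM159 Aldefluor+ and 5.55, 5.70 and 5.52 in SUM159 Aldefluor- cells, against 6.84, 6.79 and 6.71 in T47D Aldefluor+ and 6.78, 6.97 and 6.97 in T47D Aldefluor- cells. The SUM159 fractions were separated by more than their spread and the T47D fractions overlapped. DSP rose 2.18-fold in SUM159 (adjusted p = 0.00022), and the line difference was 1.25 ± 0.155 (adjusted p = 0.00105).

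ITGA2 had log2 signals of 6.51, 6.68 and 6.77 in SUM159 Aldefluor+ and 5.93, 6.16 and 6.09 in SUM159 Aldefluor- cells, against 5.67, 5.69 and 5.76 in T47D Aldefluor+ and 6.20, 6.19 and 6.02 in T47D Aldefluor- cells. Aldefluor+ arrays were the higher ones in SUM159 and the lower ones in T47D. It rose 1.51-fold in SUM159 (adjusted p = 0.0468) and had -0.43 in T47D (adjusted p = 0.172), with a line difference of 1.02 ± 0.162 (adjusted p = 0.0122). Other desmosome and junction genes did not follow DSP past the threshold. Of 18 measured, DSP was the call, DSC2 was next at 0.56 (adjusted p = 0.177), and the median was 0.03.

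SPANXC, a cancer-testis antigen gene of a family of near-identical copies on chromosome X that these probes may not tell apart, led the lower group. It had log2 signals of 0.99, 1.40 and 1.70 in SUM159 Aldefluor+ and 3.65, 3.88 and 3.55 in SUM159 Aldefluor- cells, against 2.15, 2.62 and 2.44 in T47D Aldefluor+ and 2.17, 2.41 and 2.04 in T47D Aldefluor- cells. The SUM159 Aldefluor+ arrays were at a very low level and the T47D fractions overlapped. It fell by 2.33 in SUM159 (log2, adjusted p = 0.000379), and the line difference was -2.53 ± 0.344 (adjusted p = 0.00267). Of 15 cancer-testis genes measured, 9 of which had a mean below 2, SPANXC was the single call, 6 were lower and 0 higher at an unadjusted p below 0.05, and 11 lay below 0 with a median of -0.56. PAGE2B (-2.58, adjusted p = 0.098), MAGEB2 (-1.76, adjusted p = 0.141) and PAGE5 (-1.52, adjusted p = 0.291) did not pass.

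The other SUM159 genes of the lower group were ENPP2, which encodes the lysophosphatidic acid-producing enzyme autotaxin (-1.30, adjusted p = 0.0437), the kinase gene DCLK2 (-1.56, adjusted p = 0.0361), ZNF469 (-1.48, adjusted p = 0.0134), ANKRD29 (-1.76, adjusted p = 0.0479) and the small nucleolar RNA gene SNORD116-18 (-1.03). DCLK2, ZNF469 and ANKRD29 had a mean below 2 in at least 1 of the 4 groups, and SNORD116-18 in all 4. In each of the 5, Aldefluor+ cells of SUM159 were below Aldefluor- cells past the threshold and T47D did not pass.

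In 14 genes the line difference passed although neither line did. PDK3, a kinase that inhibits pyruvate dehydrogenase, had 0.80 in SUM159 and -0.75 in T47D, with a line difference of 1.55 ± 0.299 (adjusted p = 0.0452). AHR, the ligand-activated aryl hydrocarbon receptor, had -0.38 in SUM159 and 0.61 in T47D (line difference -0.99, adjusted p = 0.0437), UGCG, the glucosylceramide synthase, -0.48 in SUM159 and 0.48 in T47D (-0.96, adjusted p = 0.0437), and the microtubule-associated protein gene MAP2 -0.50 in SUM159 and 0.59 in T47D (-1.09, adjusted p = 0.0187). The probe set at the microRNA locus MIR4316 had 1.89 in SUM159 and -0.87 in T47D (2.76 ± 0.528, adjusted p = 0.0437), and it need not measure the mature microRNA. For 1 of the T47D experiments it gave a difference above 0. AZGP1P1, a pseudogene whose probes can share sequence with its parent gene, had -1.01 in SUM159 and 1.06 in T47D (-2.07 ± 0.316, adjusted p = 0.00906).

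Of the 53 genes, 45 were protein-coding in the annotation. In 16 at least 1 ID8 group had a mean below 2, and in 4 of these (TMIE, RSF1-IT1, SNORD116-18 and TRAPPC12-AS1, named after their values were seen) all 4 groups did. Signal over background is small at that level.

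**Figure D3:**
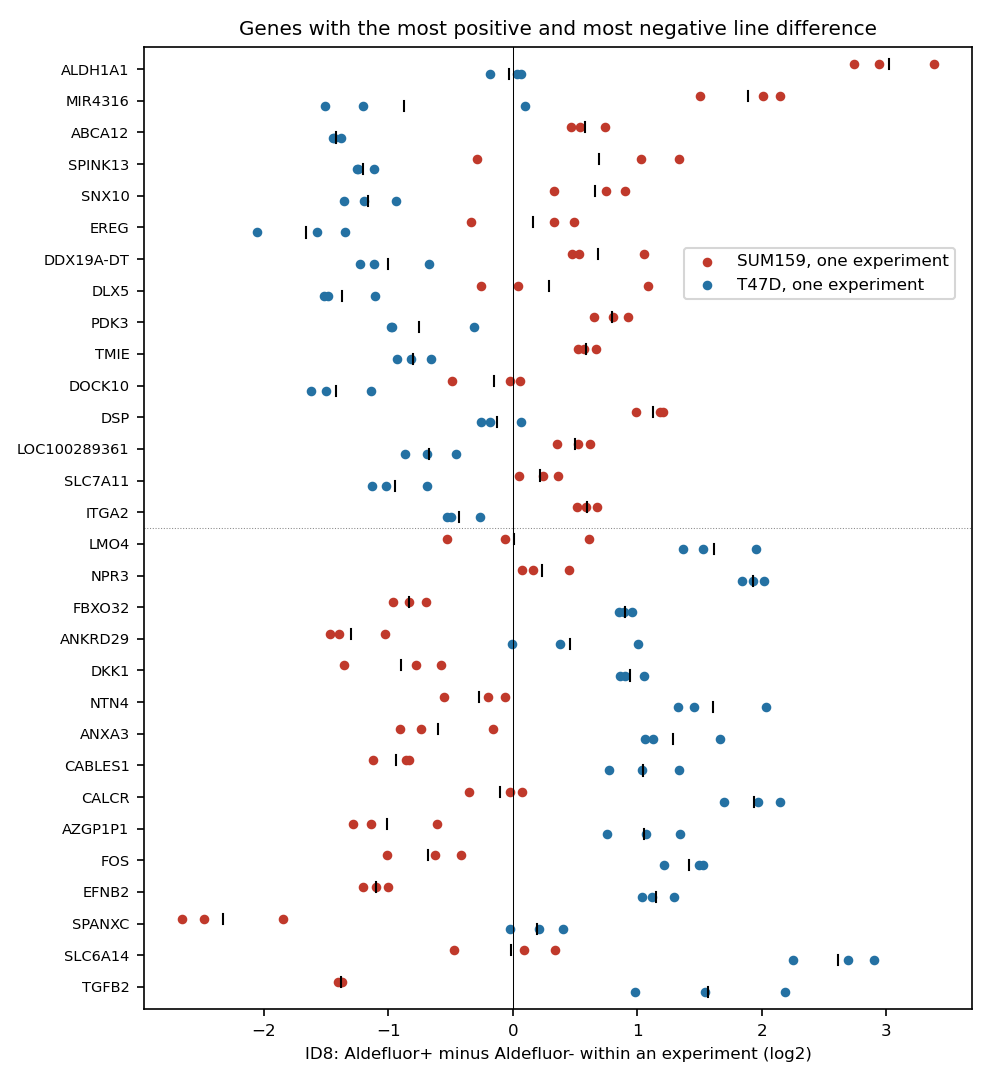
Aldefluor+ minus Aldefluor- with ID8 (log2) within each experiment, red for the 3 SUM159 and blue for the 3 T47D experiments, for the 15 called genes with the most positive (top) and the 15 with the most negative (bottom) line difference; black bars are line means. The colours do not overlap in any gene shown, as in all 53 called genes, and lie on opposite sides of 0 in most, with MIR4316, SPINK13, EREG, DLX5 and LMO4 among those that have an experiment on the other side.

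Across gene lists, the members' line differences mostly centred on 0. List medians ran between -0.56 and 0.15 for 35 lists, against 0.00 for all genes, and 14 lists held a called gene. Cancer-testis genes, YAP/TAZ targets, matricellular proteins and immediate early genes had the lowest medians, and no list was tested as a set. Their members' counts at an unadjusted p below 0.05 are to be read against 4.29% of all genes higher and 4.83% lower.

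Targets of YAP and TAZ, the Hippo-pathway coactivators that act through TEAD factors, lay below 0 in 18 of 19 genes, with a median line difference of -0.49. TGFB2 was the single call, and 7 were lower and 0 higher at an unadjusted p below 0.05. The Aldefluor difference was below 0 in 16 of the 19 in SUM159, with a median of -0.27, and above 0 in 18 in T47D, with a median of 0.22. After TGFB2, CRIM1 (-1.07 ± 0.239, adjusted p = 0.0867), CCN1 (-1.06 ± 0.234, adjusted p = 0.0821) and CCN2 (-1.05 ± 0.484, adjusted p = 0.533) were next in size, and none of them passed. CCN1, a secreted matricellular protein, had log2 signals of 5.10, 5.04 and 5.30 in SUM159 Aldefluor+ and 5.25, 5.66 and 5.88 in SUM159 Aldefluor- cells, against 5.75, 5.53 and 5.61 in T47D Aldefluor+ and 4.97, 4.94 and 5.13 in T47D Aldefluor- cells. With DMSO, the same 19 genes had a median line difference of -0.01 and 10 lay below 0. Experiments with ID8 did not overlap, with SUM159 lower, in 9 of the 19, where 7.65% of all genes had this pattern. The other low lists had it in 6 of 15 cancer-testis genes, 5 of 19 immediate early genes and 5 of 15 matricellular proteins. Their median line differences with DMSO were -0.31, -0.19 and -0.05 in that order. A change of any list with treatment was not tested.

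Matricellular and matrix-binding proteins lay below 0 in 13 of 15, with a median of -0.37. NTN4 and FSTL1 were called, and 4 were lower and 1 higher at an unadjusted p below 0.05. The Wnt-induced CCN4 fell by 1.90 in Aldefluor+ cells of SUM159 (adjusted p = 0.0132) and had 0.07 in T47D, and its line difference of -1.96 ± 0.402 missed the threshold (adjusted p = 0.0572). LAYN, a hyaluronan receptor, rose by 1.70 in SUM159 (adjusted p = 0.0437), and its line difference of 1.28 did not pass (adjusted p = 0.342). Immediate early genes, which cells switch on within minutes of a stimulus, lay below 0 in 16 of 19, with a median of -0.35 (-0.09 in SUM159 and 0.27 in T47D). FOS was the single call among them, 4 were lower and 1 higher at an unadjusted p below 0.05, and FOSB (-1.12, adjusted p = 0.394), ATF3 (-0.92, adjusted p = 0.336) and EGR3 (0.77, adjusted p = 0.332) did not pass.

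**Figure D4:**
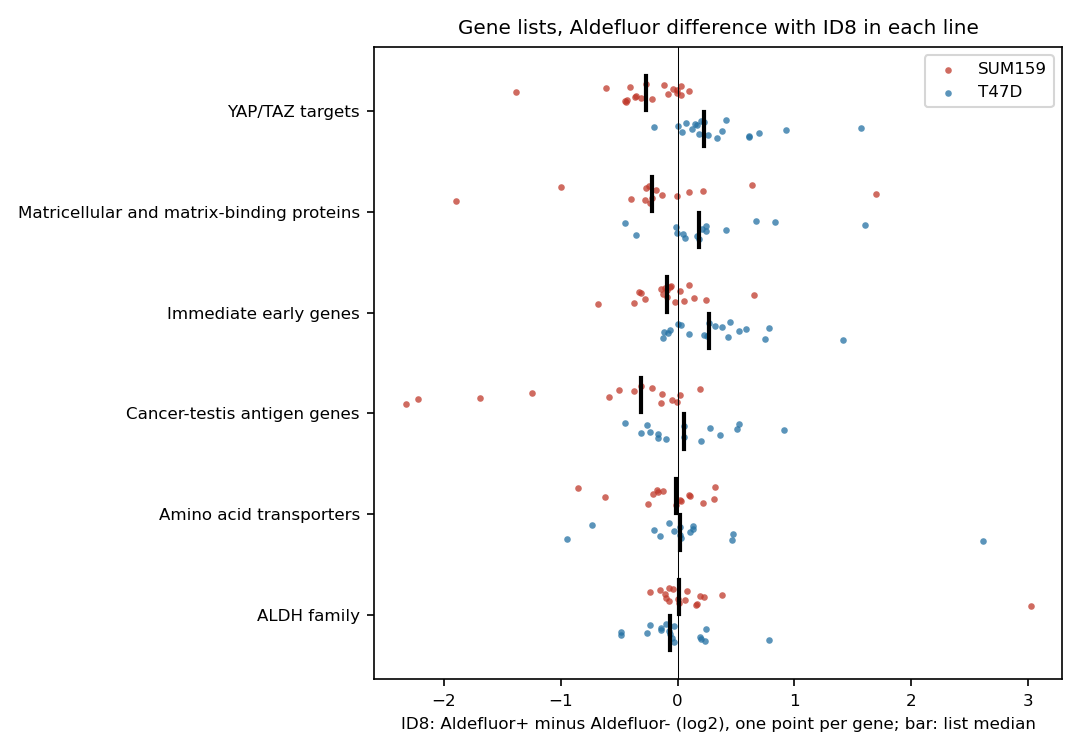
Aldefluor+ minus Aldefluor- with ID8 (log2) for the members of 6 gene lists, red for SUM159 and blue for T47D, 1 point per gene with the list median as a black bar. The YAP/TAZ targets have medians of -0.27 in SUM159 and 0.22 in T47D, and in the ALDH family and amino acid transporter lists the medians lie near 0 with ALDH1A1 and SLC6A14 far out.

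Signalling lists held single calls. Among 25 genes of TGF-beta family signalling, TGFB2 was the call, 3 were lower and 1 higher at an unadjusted p below 0.05, and the median was -0.17, with the receptor genes TGFBR3 at -0.64 (adjusted p = 0.575) and TGFBR1 at -0.51 (adjusted p = 0.389). Among 17 Wnt pathway regulators, DKK1 was the call and the median was -0.08, with CCN4 on this list too and NOTUM (-0.71) and TCF7L2 (-0.60) not past the threshold. EREG was the call among 11 EGF family ligands and ERBB receptors (median 0.04), where ERBB4 had -1.00 (adjusted p = 0.124), EPGN 0.87 (adjusted p = 0.224) and NRG1 -0.62. LMO4 was the call among 18 breast cancer stem cell markers and factors (median 0.01), in which CXCR4 had 1.23 (adjusted p = 0.298), SOX2 0.67 (adjusted p = 0.536) and CD24 0.64 (adjusted p = 0.254).

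Several lists held no call by limma. The 32 genes of G1/S and DNA replication lay above 0 in 23, with a median of 0.13, 5 higher and 1 lower at an unadjusted p below 0.05, and the largest member, the cyclin gene CCNE1, went the other way at -0.97 (adjusted p = 0.354), with the DNA polymerase epsilon subunit gene POLE2 at 0.92 (adjusted p = 0.21). Among 21 NF-kB targets and inflammatory cytokines the median was -0.18, with 2 higher and 3 lower at that level, and CCL22 stood at -1.93 (adjusted p = 0.0772), CCL2 at -1.40 (adjusted p = 0.308) and IL1B at 1.13 (adjusted p = 0.149). The 15 collagen chains (median -0.06) had 0 higher and 3 lower, with COL5A1 at -1.09 (adjusted p = 0.309) and COL6A3 at -0.87 (adjusted p = 0.309), and the 9 basal and myoepithelial genes (median -0.18) had 1 higher and 3 lower, with KRT16 at -1.29 (adjusted p = 0.275), MME at 0.80 (adjusted p = 0.472), KRT15 at -0.72 (adjusted p = 0.512) and KRT14 at 0.58 (adjusted p = 0.674).

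The same line contrast in DMSO-treated cells used other arrays of the same experiments, and the spread was estimated over all of them. It passed for 15 genes (0.0670%), and 1734 (7.74%) had an unadjusted p below 0.05. Of the 53 genes called with ID8, 6 were also called with DMSO, all with the same sign: ABCA12, ALDH1A1, COX7B2, NTN4, SLC6A14 and SNX10. The sign was the same in 46 of the 53 (86.8%, against 52% of all genes), and 34 (64.2%) had an unadjusted p below 0.05 with DMSO. In 52 the difference was smaller in size with DMSO, where the genes were selected on the ID8 arrays, and COX7B2 was the exception. The median with DMSO, taken in the direction seen with ID8, was 0.656, against a median size of 1.53 with ID8. Across all genes the line differences with ID8 and with DMSO had r = 0.116, a description over genes.

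Side by side, the line difference of ALDH1A1 was 3.05 with ID8 and 2.59 with DMSO, and that of SLC6A14 -2.63 with ID8 and -2.24 with DMSO. TGFB2 had -2.95 with ID8 and -1.66 with DMSO, where its Aldefluor difference was -0.19 in SUM159 and 1.46 in T47D. EFNB2 had -2.25 with ID8 and -1.17 with DMSO, CABLES1 -1.99 with ID8 and -0.91 with DMSO, DKK1 -1.84 with ID8 and -1.25 with DMSO, and FBXO32 -1.73 with ID8 and -1.06 with DMSO. All of these had the same sign with ID8 and with DMSO. For ANXA3 the values were -1.88 with ID8 and -0.27 with DMSO, for FOS -2.10 with ID8 and -0.46 with DMSO, for PDK3 1.55 with ID8 and 0.05 with DMSO, and for NPR3 -1.70 with ID8 and 0.48 with DMSO. None of these 11 genes passed the test of ID8 against DMSO, so a change with treatment is not shown for them.

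The test of that change, the line difference with ID8 minus the line difference with DMSO, passed for 1 gene (0.00447%), and 1567 genes (7.00%) had an unadjusted p below 0.05. ANKRD1, a cardiac ankyrin repeat protein gene and a YAP/TAZ target, had a log2 signal with ID8 of 4.03, 4.36 and 4.62 in SUM159 Aldefluor+ and 4.64, 4.92 and 4.79 in SUM159 Aldefluor- cells, and of 3.13, 3.87 and 3.34 in T47D Aldefluor+ and 3.25, 2.91 and 3.17 in T47D Aldefluor- cells. With DMSO its log2 signal was 3.63, 3.83 and 3.49 in SUM159 Aldefluor+ and 1.58, 1.61 and 1.53 in SUM159 Aldefluor- cells, and 3.42, 3.00 and 3.46 in T47D Aldefluor+ and 3.14, 3.19 and 3.11 in T47D Aldefluor- cells. The SUM159 Aldefluor- cells with DMSO were the low group. Its line difference was -0.78 with ID8 (adjusted p = 0.336) and 1.93 ± 0.264 with DMSO (adjusted p = 0.00558), and the change was -2.72 ± 0.373 (adjusted p = 0.0422). This call was lost in every fit that left out an experiment, and when 1 DMSO array was dropped, the experiment 4 array of SUM159 Aldefluor+ cells (adjusted p = 0.052).

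**Figure D5:**
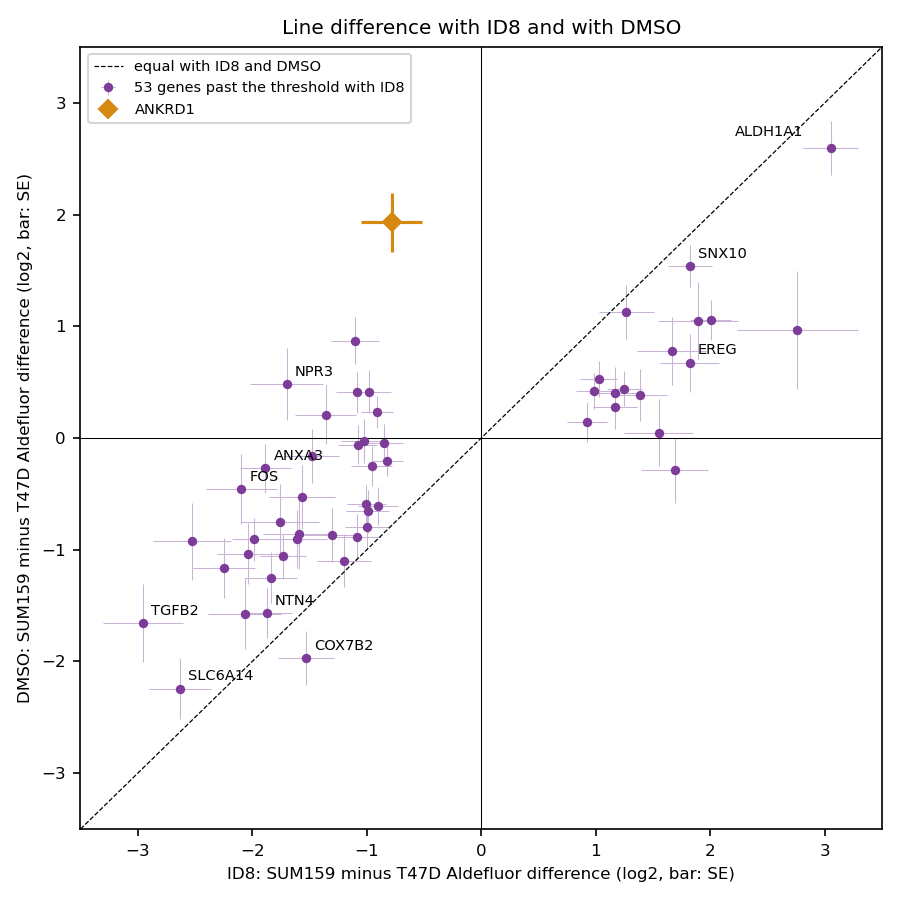
SUM159 minus T47D Aldefluor difference (log2, bars are SE) with ID8 (horizontal) and with DMSO (vertical) for the 53 genes called with ID8 and for ANKRD1, with the dashed line at equal values. ALDH1A1, SLC6A14, NTN4 and SNX10 lie near the line, most of the others lie between the line and 0, and ANKRD1 lies at -0.78 with ID8 and 1.93 with DMSO.

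The number of calls depended on the samples and on the variance model. Direction did not change for any of the 53 genes in the alternatives that tested it, which were all 15 for 45 genes and all but the low-signal filter for 8. Fitted on the 12 ID8 arrays alone, 14 genes were called, and 18 to 25 when any 1 of the 6 experiments was left out. The line difference of ALDH1A1, ABCA12, FBXO32, CABLES1, EFNB2, SPANXC, SLC6A14 and TGFB2 passed in all 15 alternatives. That of SNX10, DSP, DKK1, NTN4 and ANXA3 passed in all but the fit on 12 arrays. At the other end, 20 genes missed the threshold whichever experiment was left out, among them NPR3, SLC7A11, DOCK10, AHR, MAP2, ENPP2, ANKRD29 and SNORD116-18. Others passed in only 1 of these 6 fits, among them LMO4, ITGA2, FSTL1, AZGP1P1, MIR4316, PDK3, UGCG, SPINK13 and DLX5. These passes are of the line difference and not of the changes within a line. Within SUM159, 45 genes passed with all 24 arrays, and 5, 5 and 6 without experiment 2, 3 or 4. On the 12 ID8 arrays alone 3 did, fewer than the 5 genes called in both lines. Which of those 5 passed in SUM159 there, if any, is not given here.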

How the data were processed

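Affymetrix Human Gene ST 2.1 plate arrays measured sorted RNA. The deposited values are log2 signals that the authors made with RMA and adjusted with ComBat, per the design text and the submitters' processing notes. For versions, ComBat batches and protected covariates, nothing is given in the sources used here. This adjustment can compress differences within a line by an unknown amount.

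Of 53617 probe sets, 23871 had 1 symbol in the platform table, 1842 several and 27904 none. Symbols of 22569 were brought up to date through gene numbers (RefSeq GRCh38.p14). The probe set with the highest mean represented each gene (632 genes had more than 1), leaving 22395 genes, 49% of them with a mean below 2. limma 3.58.1 in R 4.3.3 fitted 8 group means with experiment as a block within line to all 24 arrays (12 residual degrees of freedom), and p-values were adjusted by Benjamini-Hochberg over all genes, called below 0.05. The code of the fit was run on simulated arrays with known changes. Their residuals were independent, while the values here appear centred within experiment, so that run does not measure error rates in these data. RNA per cell used an exact permutation test (scipy 1.17.1).

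The labels give each number as a separate experiment, which pairs the arrays. Deviations of the 36 same-experiment pairs from their group means correlated at -0.408 to -0.266, around the -0.333 that 4 arrays centred on their experiment's mean would give. Each experiment's average lay close to that of its line (SD across genes up to 0.0226), so these correlations do not bear on the pairing, which rests on the labels. Genes were named by rule: the 15 most positive and 15 most negative calls, ALDH1A1, ALDH1A3 and called list members. The rule also took up to 4 largest members per list and the top calls of the ID8 minus DMSO contrast. Calls with opposite signs at an unadjusted p below 0.05 in both lines were included too. VIM, CDH1 and ESR1 had line differences of -0.04, 0.02 and 1.04 (limma adjusted p = 0.971, 0.983 and 0.181). These are differences of the Aldefluor effect and not of levels, so they do not check the identity of the lines. The comparison, lists, motifs and this rule were chosen with earlier results of these data known. Alternatives were block, low-signal filter, normalization, probe sets, variance model, array weights, arrays fitted and left-out experiments. Promoter windows are RefSeq's.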

Additional observations from a re-analysis of the deposited data

Results flagged for a closer look

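Each of the 53 genes called between the lines is a case in which the Aldefluor difference with ID8 differed between SUM159 and T47D by the test of that difference itself. The values are SUM159 minus T47D (log2), from 3 experiments per line, with no explanation offered. Where the Aldefluor difference was higher in SUM159, the line difference was ALDH1A1 3.05, MIR4316 2.76, ABCA12 2.00, SPINK13 1.90, SNX10 1.82, EREG 1.82, DDX19A-DT 1.69, DLX5 1.66 and PDK3 1.55. Smaller positive values were TMIE 1.39, DOCK10 1.27, DSP 1.25, LOC100289361 1.17, SLC7A11 1.16, ITGA2 1.02, RSF1-IT1 0.99 and MAST4 0.92. Where it was lower in SUM159, the most negative values were TGFB2 -2.95, SLC6A14 -2.63, SPANXC -2.53, EFNB2 -2.25, FOS -2.10, AZGP1P1 -2.07, CALCR -2.04, CABLES1 -1.99 and ANXA3 -1.88. The next were NTN4 -1.87, DKK1 -1.84, ANKRD29 -1.76, FBXO32 -1.73, NPR3 -1.70, LMO4 -1.61, PAMR1 -1.59, DCLK2 -1.56 and COX7B2 -1.53. Further genes had ZNF469 -1.48, TMEM132D-AS1 -1.36, ENPP2 -1.30, CDC14B -1.20, TRAPPC12-AS1 -1.10, MAP2 -1.09, GLT8D2 -1.08, FSTL1 -1.08 and SNORD116-18 -1.03. The smallest negative values were AFG2A -1.00, DOCK5 -1.00, AHR -0.99, RNF11 -0.98, UGCG -0.96, MED23 -0.91, PXK -0.90, CAPNS1 -0.85 and ROBO1 -0.82.

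ANKRD1 is the gene whose change of the line difference with treatment passed by limma, at -2.72 (log2) with ID8 relative to DMSO (adjusted p = 0.0422). The call was lost in every fit that left out an experiment and in the fit to all probe sets. It was also lost without the experiment 4 DMSO array of SUM159 Aldefluor+ cells.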

How the results depend on the processing

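Between the lines, 53 genes were called (17 higher, 36 lower). Leaving out the experiment block gave 289 (113 higher, 176 lower), 208 within SUM159 against 45, 325 within T47D against 82, and 21 for the ID8 minus DMSO change against 1. The block is kept because the labels pair the arrays by experiment, and because the values appear centred within experiment, so that the fit without it counts degrees of freedom that the centring had used. Testing only genes with a mean of at least 2 gave 98 (31 higher, 67 lower) and 3 for the ID8 minus DMSO change, and a variance model with trend and robust fitting gave 96 (27 higher, 69 lower) and 6. Centring arrays on their medians gave 2 for that change, as did array weights. All probe sets gave 21 within SUM159 and 0 for the change (limma; 3468 at an unadjusted p below 0.05). The 12 ID8 arrays alone gave 14 (3 higher, 11 lower), 3 within SUM159 and 25 within T47D. The experiment 4 array of SUM159 Aldefluor+ cells with DMSO had an interquartile range of 2.88, against 2.97 to 3.12 for the other 23; without it, SUM159 had 21 calls and the change 0 (limma; 1788 unadjusted), and 44 of the 53 line calls were kept. PDK3, MAST4, CAPNS1, RNF11, DOCK5, CDC14B, TMEM132D-AS1, PAMR1 and ANKRD29 then had adjusted p of 0.0506 to 0.0551.

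Leaving out each experiment in turn gave 18 to 25 line calls (4 to 10 higher, 11 to 16 lower), of which 16 to 21 were among the 53. It gave 5 to 32 within SUM159, 14 to 81 within T47D, and 0 to 0 for the change (limma; 1366 to 1777 unadjusted). Each of these fits also had fewer arrays, so the counts do not tell how much any 1 experiment mattered. Quantile normalization gave 58 line calls. The RNA per cell difference was -0.42 to -0.33 without 1 experiment and -0.34 on the linear scale. The causes were not tested beyond the fewer arrays or other genes that each setting has by construction. No sign changed among the 53 in any alternative that tested them; the filter on low signal left 8 of them untested. Arrays at 3 per group gave a median standard error of 0.262, and 49% of genes had a mean below 2, where low signal limits what can be seen.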

Other observations

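Probe sets with several or no symbol in the platform table entered no comparison above. Tested with all others, 42 of the 53617 probe sets passed between the lines, of which 29 had 1 symbol and 13 had several or none, 8 of these higher and 5 lower in the SUM159 minus T47D Aldefluor difference.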
